A study of Mus musculus with 2 samples.

Results

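The genes described here encode the TGF-beta ligands (Tgfb1, Tgfb2, Tgfb3), their receptors (Tgfbr1, Tgfbr2) and the Smad proteins that carry or restrain the signal (Smad2, Smad3, Smad4, Smad6, Smad7). Members were all probe sets for which the platform annotation gave exactly 1 gene symbol that is among these 10. This gave 19 probe sets of 22626 on the arrays without controls, and these covered all 10 genes, of 12393 genes named on the arrays. A probe set is a group of short oligonucleotides on the array that together read 1 transcript or gene. RNA came from the mouse fibroblast line NIH 3T3, which was derived from embryos, 48 hours after lipid-based transfection. The ATCE1-C-del group (1 array) received a plasmid for an HA-tagged ATCE1 without its C-terminal part, a form described as nuclear and driven by the viral CMV promoter. The empty vector group (1 array) received the same pCMV-HA vector with no insert. ATCE1, the product of the gene Creb3l4, is a bZIP transcription factor related to CREB, and the arrays addressed which transcripts differ when it is expressed.

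TGF-beta ligands are secreted in a latent form, are released in the extracellular matrix and bind a pair of kinase receptors, in which the type II receptor (Tgfbr2) activates the type I receptor (Tgfbr1). The active receptor phosphorylates Smad2 and Smad3, which join Smad4 and enter the nucleus to regulate genes. Smad6 and Smad7 are inhibitory and are themselves induced by signals of this superfamily. In fibroblasts the pathway is known for raising matrix production.

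Each group was a single array, so no replicate error and no test could be had, and every value below is a description of these 2 arrays, and no gene is said to have changed. Signals are MAS5 values on a linear scale. A signal under 77.4, the higher of both array medians, was raised to that floor before log2 ratios (ATCE1-C-del over empty vector) were computed, because faint MAS5 signals vary by large factors. A probe set counted as measured if either array reached the floor. As a rough measure of error, the 2 brightest probe sets of one gene gave log2 ratios with an SD of 0.20 per probe set, over 2441 genes. Differences between cultures, between transfections and between labelling reactions are not part of it. This SD pools all levels above the floor, so it may be too small for faint probe sets. The middle 95% of ratios ran from -0.57 to 0.54 among the faintest measured on both arrays and from -0.34 to 0.33 among the brightest. The transfected gene, Creb3l4, read 18.0 on the ATCE1-C-del array against 20.7, both under the floor, so its probe set does not check which culture carried the insert. All 10 fibroblast markers were measured, with summed signals of 47437 for ATCE1-C-del and 47727 for empty vector. None of 5 epithelial and 4 endothelial markers was measured. Of 5 macrophage markers, 2 were measured (Cd14 and Cd68), and of 4 smooth muscle markers 1 was (Acta2). RNA was pooled from whole cultures, so fewer cells of a kind and less RNA per cell cannot be told apart, nor can transfected cells from untransfected ones.

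Most genes of the core pathway differed little between the arrays, and the largest log2 ratio among the members belonged to the ligand Tgfb2, which was 1.56-fold lower with ATCE1-C-del. Of the 19 member probe sets, 13 were measured on both arrays, 1 on the empty vector array alone and 5 on neither. These 14 measured probe sets stood for 9 genes, and Smad6 was the gene with none. By sign, 8 were lower and 6 higher with ATCE1-C-del, with a median log2 ratio of -0.07 against -0.0017 over all 11592 measured probe sets, of which 50.4% were lower. At 1.5-fold, 1 member was lower and 0 were higher. Over all measured probe sets, 1.43% passed that fold as lower and 1.04% as higher. A single member past the fold is too few to set apart from this background.

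**Figure D1:**
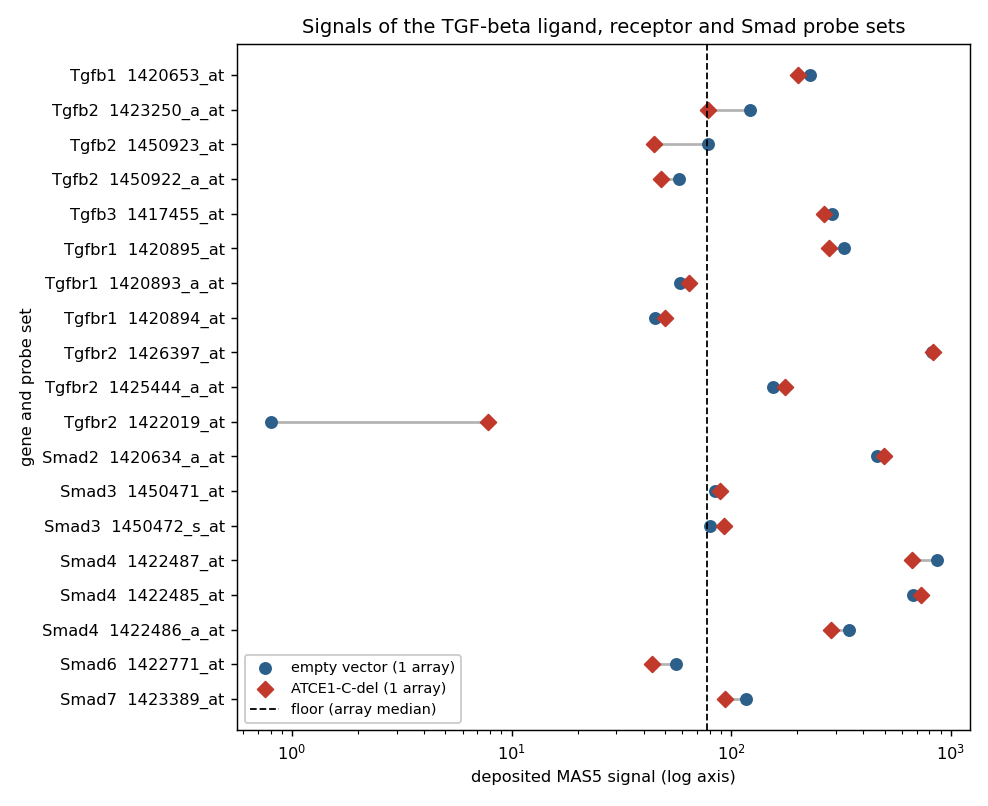
Deposited MAS5 signal (log axis) of each of the 19 member probe sets on the ATCE1-C-del array (diamonds) and the empty vector array (circles), with the floor of 77.4 as a dashed line. The pairs lie close together except for Tgfb2 and for 1 probe set of Tgfbr2 that is far under the floor on both arrays.

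Each of the ligand genes had a lower signal with ATCE1-C-del. All 4 measured ligand probe sets had a log2 ratio under 0, with a median of -0.15, where 50.4% of all measured probe sets were lower. They are not 4 independent readings: 2 are probe sets of Tgfb2 with the same source sequence, and 1 of these gives only a bound. Tgfb1, the ligand most widely made by fibroblasts and immune cells, read 202.0 with ATCE1-C-del against 229.5 with empty vector, 1.14-fold lower (log2 ratio -0.19). This lies inside the spread of 0.20 between probe sets of one gene. Tgfb3, a ligand with roles in palate fusion and wound repair, read 264.8 against 287.2, 1.09-fold lower (log2 ratio -0.12), which is also inside that spread. Both signs depend on the scaling: relative to the hybridisation controls, RNA added to the sample before hybridisation, Tgfb1 stood at 0.06 and Tgfb3 at 0.13, while the median of all measured genes moved from -0.011 to 0.23. That scaling shifts the whole array by a common factor, so the place of a gene relative to the median gene hardly can change and is no check.

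Tgfb2, a ligand needed in heart, eye and skeletal development, was the member furthest from 0. It was read by 3 probe sets, and the annotation gives all 3 the same source sequence, so they are not independent. On the brightest, 1423250_a_at, it read 78.2 with ATCE1-C-del against 121.9 with empty vector. The ATCE1-C-del value thus sits just above the floor of 77.4. The log2 ratio was -0.64, and only 0.940% of the measured probe sets had a ratio this low or lower. It lay outside the range of -0.57 to 0.54 that held the middle 95% of the 2194 probe sets of like brightness. The probe set 1450923_at read 44.7 against 78.8. Its ATCE1-C-del signal was under the floor, so the fold is only bounded, at least 1.02-fold lower. The probe set 1450922_a_at read 48.1 against 57.6, under the floor on both arrays, and gives no fold. All 3 were dimmer on the ATCE1-C-del array, but only the first gave a ratio above the floor on both. The 1.5-fold count of 1 rests on that probe set. With the floor at the 75th percentile, with 50 added to each signal, or without probe sets that can match several transcripts, the count was 0. In the first and last of these settings the probe set itself drops out, so they do not check its ratio. Scaled to the hybridisation controls its log2 ratio was -0.39.

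The promoter of Tgfb2 is shown because it is the gene with the lowest ratio and because CREB family proteins bind the cAMP response element (CRE). The 250 bases upstream of the annotated start, from RefSeq on GRCm38.p6 at chr1:186705990-186706239 on the minus strand, are printed 5′ to 3′. Capitals mark the CRE core TGACG, which lies here as its reverse complement, and the E-box CACGTG, a site of basic helix-loop-helix factors.

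Tgfb2: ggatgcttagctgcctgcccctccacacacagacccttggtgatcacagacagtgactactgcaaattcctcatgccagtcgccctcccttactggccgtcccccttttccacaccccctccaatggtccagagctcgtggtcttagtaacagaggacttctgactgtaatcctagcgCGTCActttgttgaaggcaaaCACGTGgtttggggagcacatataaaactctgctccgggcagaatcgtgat

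The core begins 72 bases before the start (position -72). Both strands were searched in windows from 250 bases before to 50 after the start, and 20.8% of all 32851 promoter windows of this length hold TGACG, so a match is common. The full CRE, TGACGTCA, which contains this core, is in 1.79% of windows and in none of the 7 windows of the 6 members that the promoter table lists (Tgfb1, Tgfb2, Tgfbr1 with 2 starts, Tgfbr2, Smad3 and Smad6). Tgfb2 was the only one of these 6 with the core. The E-box is in 7.15% of all windows, and among these members in Tgfb2 alone. These matches describe letters and not bound sites.

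The receptor genes showed no common direction. Tgfbr1, the type I kinase receptor, read 280.4 with ATCE1-C-del against 327.2 on 1420895_at, 1.17-fold lower (log2 ratio -0.23). Its other probe sets, 64.6 against 58.6 and 49.8 against 45.2, were under the floor and were brighter on the ATCE1-C-del array. Scaled to the hybridisation controls, which moves nearly all genes alike, the measured one stood at 0.02, with the median gene at 0.23. Tgfbr2, the type II receptor that binds the ligand first, was level on its brightest probe set, 1426397_at, at 826.1 against 823.1 (log2 ratio 0.0014). On 1425444_a_at it read 175.0 against 154.9, 1.13-fold higher (log2 ratio 0.17), inside the spread between probe sets of one gene. The probe set 1422019_at, at 7.8 against 0.8, was far under the floor on both arrays, so no fold is given.

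**Figure D2:**
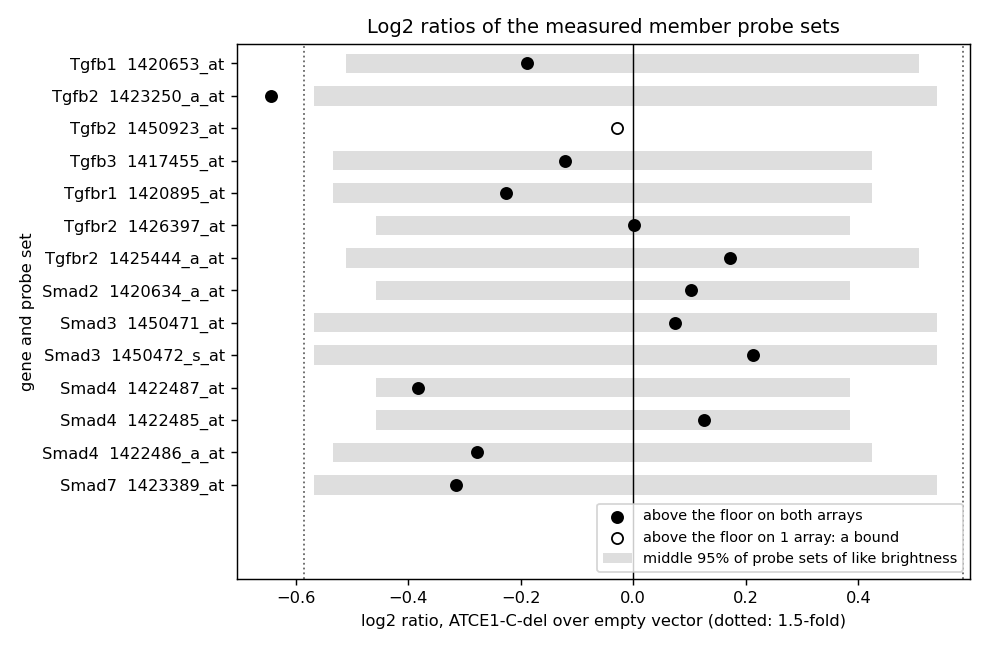
Log2 ratio (ATCE1-C-del over empty vector) for the 14 measured member probe sets; filled points are above the floor on both arrays and the open point is a bound. Grey bars span the middle 95% of all probe sets of like brightness, and 12 of the 13 filled points lie inside theirs, with Tgfb2 1423250_a_at outside.

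The receptor-activated Smads were slightly higher with ATCE1-C-del. Smad2, read by a single probe set, had a signal of 496.5 against 461.2, 1.07-fold higher (log2 ratio 0.10). Smad3, which unlike Smad2 binds DNA directly, read 93.2 against 80.2 on 1450472_s_at and 89.3 against 84.6 on 1450471_at, with log2 ratios of 0.21 and 0.07. Its signals lay only just above the floor on both arrays, where the middle 95% of ratios ran from -0.57 to 0.54. All 3 of these probe sets had the same sign, and the ratio of only 1 reached the spread of 0.20.

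Smad4, the common partner of the other signalling Smads, gave opposite answers by probe set. It was 1.30-fold lower on 1422487_at, at 666.4 against 866.8 (log2 ratio -0.38), and 1.21-fold lower on 1422486_a_at, at 283.6 against 342.7 (log2 ratio -0.28). On 1422485_at it was 1.09-fold higher, at 732.8 against 669.9 (log2 ratio 0.13). The annotation gives these 3 probe sets one source sequence as well. Their ratios span 0.51 on the log2 scale. Of 542 genes with exactly 3 probe sets measured on both arrays, 19.4% spanned at least as much, and the median span was 0.30. The sign of Smad4 as a gene is therefore not settled by these arrays, and the brightest probe set, which was lower, does not stand for all 3.

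The inhibitory Smads were faint. Smad7, which blocks the type I receptor and is itself induced by TGF-beta, read 94.2 against 116.9, 1.24-fold lower (log2 ratio -0.32) on its single probe set, 1423389_at. The ratio exceeded the spread of 0.20 but lay inside the middle 95% for its brightness, -0.57 to 0.54. Smad6, which mainly restrains BMP signals, read 43.6 against 56.2, under the floor on both arrays. A stretch of 30 bases at its annotated start is shown because it alone among the listed members holds the palindrome GTCTAGAC (capitals), the element that Smad3 and Smad4 bind in vitro. It is from RefSeq on GRCm38.p6, chr9:64022045-64022074, minus strand.

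Smad6: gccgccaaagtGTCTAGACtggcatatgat

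This palindrome occurs in 0.213% of the 32851 windows. The shorter Smad box was searched only as the letters CAGAC. The palindrome ends in AGAC and so does not match that search. CAGAC is in 49.6% of windows and, among the members listed, in Tgfb2, Tgfbr2 and 1 of the 2 starts of Tgfbr1. Smad6 was not measured above the floor, so the arrays give no ratio to set beside this element.

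The other genes of the pathway were described from 5 lists, using the brightest probe set of each gene. Over all 6788 measured genes the median log2 ratio was -0.011, 52.1% were lower, 1.12% were at least 1.5-fold lower and 0.869% at least 1.5-fold higher. On the same basis the 9 measured member genes had a median of -0.19, with 6 lower and 3 higher, and 1 (Tgfb2) at least 1.5-fold lower. Scaled to the hybridisation controls the medians of all 5 lists were above 0, from 0.10 to 0.31, beside 0.23 for all genes. The medians for latent storage, other receptors and Smad partners, given below as negative, thus took the other sign. Those for other ligands and antagonists (2 measured genes) and for target genes were positive on both of these scales. The target median of 0.01 lay close to 0, however. It was negative with array medians (-0.014), quantile normalization (-0.046) and lowess (-0.042). The member-gene median of -0.19 differs from the median over member probe sets because the dimmer probe sets of Tgfb2, Tgfbr2, Smad3 and Smad4 no longer count.

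Genes that store or activate latent TGF-beta had 11 of 15 annotated members measured, 7 lower and 4 higher, with a median of -0.15 and 0 past 1.5-fold. Ltbp1 and Ltbp4, which tether the latent ligand to the matrix, were 1.23-fold and 1.22-fold lower, at 153.7 against 188.2 and 89.8 against 109.2. Emilin1, a matrix glycoprotein that restrains processing of the precursor, was 1.17-fold lower, at 323.0 against 376.2, and its second probe set gave a log2 ratio of -0.18. Thbs1, a secreted activator of the latent complex, was 1.18-fold higher, at 720.9 against 609.5, with its other probe set at 0.30.

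Other receptors of the superfamily had 6 of 13 members measured, 4 lower and 2 higher, with a median of -0.08 and 0 past 1.5-fold. Tgfbr3, the co-receptor betaglycan, which presents Tgfb2 in particular to the signalling receptors, was 1.29-fold higher, at 247.4 against 191.0 on its single probe set. Acvr1 and Acvr2a, receptors for BMPs and activins, were 1.20-fold and 1.12-fold lower. Bambi, a decoy receptor without a kinase, was at least 1.08-fold higher, at 83.5 against 75.9, the latter under the floor. Of 17 annotated genes for other ligands and antagonists, only the antagonists Fstl3 (96.8 against 85.4) and Grem1 (133.0 against 128.8) were measured, at log2 ratios of 0.18 and 0.04, and BMP, activin and Nodal genes of the list were under the floor on both arrays.

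Smad partners and regulators had 19 of 21 annotated members measured, 11 lower and 8 higher, with a median of -0.03 and 0 past 1.5-fold. Crebbp, a histone acetyltransferase that serves both Smads and CREB, was 1.34-fold lower, at 82.3 against 110.2. Rnf111, the ubiquitin ligase Arkadia, which removes Smad7 and Skil, was lower, at 262.2 against 326.9 (log2 ratio -0.32). The co-repressor genes Tgif2 and Ski were higher, at 123.5 against 98.8 and 318.4 against 260.2 (log2 ratios 0.32 and 0.29).

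Genes known to rise with TGF-beta in fibroblasts were split evenly, with 10 of 20 measured members lower and 10 higher and a median of 0.01. By the brightest probe set, the only one past 1.5-fold was Postn, a matrix protein gene, 1.59-fold lower at 1123.5 against 1779.7. A dimmer probe set of Vegfa, a gene chosen after its values were seen, was past 1.5-fold as higher (log2 ratio 0.76). The signals of that probe set are not given here, so its distance from the floor cannot be judged. Tagln, an actin-binding protein gene, was 1.24-fold lower at 239.0 against 295.6. Snai1 and Junb, both transcription factor genes, were 1.23-fold and 1.22-fold higher, at 220.7 against 179.2 and 113.2 against 92.3. Ccn2, a matricellular protein gene often used as a readout of the pathway, was chosen after its value was seen and stood at 312.9 against 281.1, a log2 ratio of 0.15. Values on both sides of 0 were thus seen among known targets, as among the members.

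**Figure D3:**
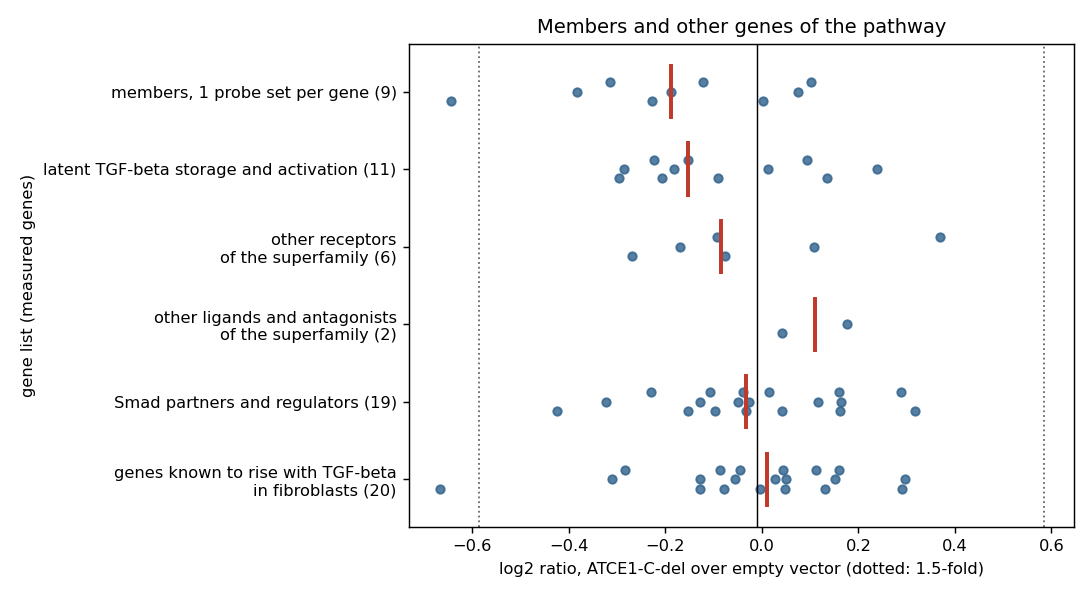
Log2 ratio (ATCE1-C-del over empty vector) for the measured genes (points, 1 probe set per gene) of the members and of the 5 lists, with each list's median as a red bar, the median of all genes as a line and 1.5-fold as dotted lines. Tgfb2 and Postn are the points beyond 1.5-fold, and both are lower.

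The signs of the members held under most other ways of scaling the arrays, but most of these could hardly turn them. A different floor common to both arrays, no floor, or a constant added to both signals cannot turn a sign by construction. Those settings are therefore no check of the signs. Using the signals as deposited moved the ratios hardly at all and is a weak check. The sign counts below include all of these settings and so rest on the remaining scalings, which could turn few signs. Array medians, quantile normalization and lowess moved the ratios little, for example Smad2 from 0.10 to 0.08, 0.13 and 0.13. The hybridisation controls raised the ratios, for example Smad2 to 0.35, so ratios above 0 could not turn there. Kept signs are therefore a weak check, mainly of how far a ratio lay from 0. For 10 of the 14 measured probe sets (those of Tgfb2, Smad2, Smad3, Smad4 and Smad7 and 1425444_a_at of Tgfbr2) the sign was kept under every alternative that gave a value. Tgfb1, Tgfb3 and Tgfbr1 turned only when scaled to the hybridisation controls. The level probe set of Tgfbr2 turned under array medians, at a log2 ratio of -0.024. With that control scaling, 667 of all measured probe sets were at least 1.5-fold higher and 30 lower, against 120 and 166 as reported.

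**Figure D4:**
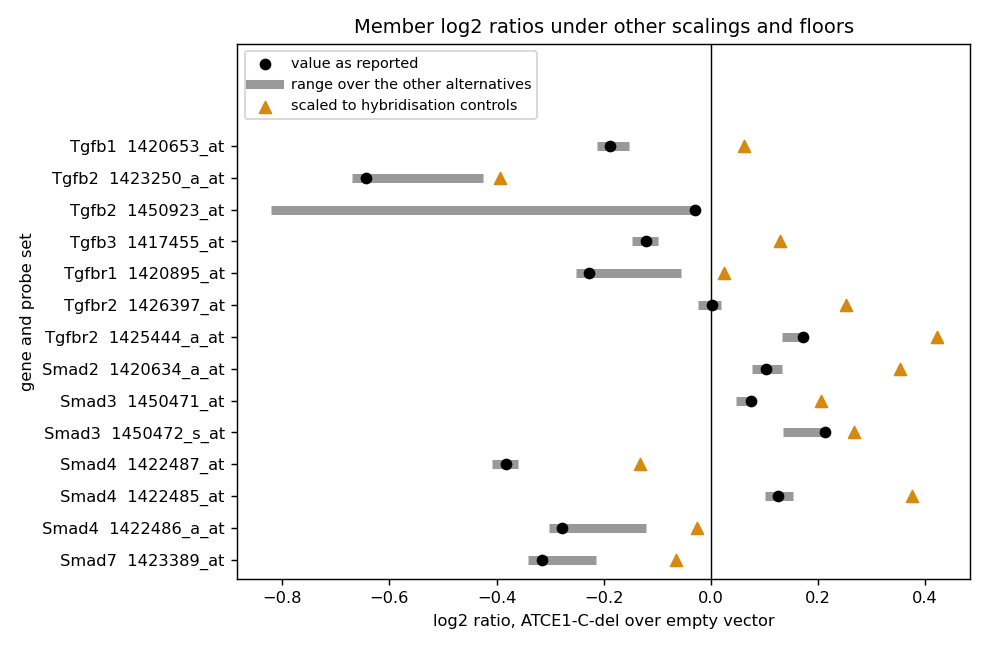
Log2 ratio of each measured member probe set as reported (points), its range over the other scalings, floors and log scale (grey bars) and its value when scaled to the hybridisation controls (triangles). The second Tgfb2 probe set has the widest bar, reaching -0.82 where the floor no longer limits it.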

How the data were processed

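The deposited intensity values are linear MAS5 signals, as named in the submitters' processing notes. The MAS5 version and target value and any detection call are not given in the sources here. Total RNA was labelled with biotin, per the labels' protocols. Each of the 2 samples was grouped by its title. Arrays were divided by their mean trimmed by 2% at each end (249.8 and 249.2), and 64 control probe sets were left out of ratios. Gene names came from the platform annotation; the Entrez IDs of all 10 genes carry the same symbols in RefSeq (GRCm38.p6). The number of arrays limits the precision. The members and lists were chosen with earlier results of these data known. Genes were named by rule: every member probe set, Creb3l4, and up to 4 genes per list with the largest absolute log2 ratio. Ccn2 and Vegfa fall outside this rule and were chosen after their values were seen. Over 2 arrays any pair of genes correlates perfectly, so no gene was named for a similar pattern. The procedure was tested on simulated data with planted changes larger than any member's measured ratio, in probe sets above the floor on both arrays. Recovery of small ratios near the floor was not tested. Python 3.11.15, numpy 2.4.6, pandas 2.3.3, statsmodels 0.14.6 and matplotlib 3.10.9 were used.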

Additional observations from a re-analysis of the deposited data

How the results depend on the processing

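No paired analysis was possible because each group held 1 array, and for the same reason no replicate could be left out. The member count past 1.5-fold (1 lower, 0 higher) became 0 lower with the hybridisation controls, the 75th percentile floor, 50 added to each signal, a 2-fold threshold, or no probe sets that can match several transcripts. It became 2 lower with the 25th percentile floor, no floor, or a threshold of 0.32 on the log2 scale, and 1 higher with no floor, where Tgfbr2 1422019_at enters. Over all probe sets, 120 higher and 166 lower became 667 and 30 with the hybridisation controls, 1155 and 647 with the 25th percentile floor, 16 and 34 with the 75th, 3714 and 2204 with none, 79 and 74 with 50 added, 8 and 8 at 2-fold, 867 and 994 at a log2 threshold of 0.32, and 72 and 101 without multiple-match probe sets. The member median of -0.07 moved to 0.13 with the hybridisation controls, -0.15 with the 25th percentile floor and -0.18 with gene means. Leaving out Tgfb2 or Smad4, chosen after the data were seen, gave -0.06 and -0.03. With the hybridisation controls the list medians were 0.10 (latent storage), 0.13 (receptors), 0.31 (ligands and antagonists), 0.22 (Smad partners) and 0.26 (targets), beside 0.23 for all genes. The target median was -0.046 with quantile normalization and -0.042 with lowess. The receptor median was 0.026 with the 25th percentile floor, 0.13 with none and 0.044 with 50 added. The ligand and antagonist median was 0.26 with no floor, and the latent storage median -0.09 with gene means. Apart from what each setting does by construction, the cause was not tested. The other 85 comparisons of a count or median with an alternative stayed within 1.5 times the count or within the spread between probe sets, scaled to the number of values. Signals near the floor limit Tgfb2, Smad3, Smad6 and Smad7 among the members, and some genes of the lists, such as Crebbp.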

Other observations

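Among the known TGF-beta targets, Vegfa, an angiogenic growth factor gene, was chosen after its values were seen. Its brightest probe set had a log2 ratio of 0.13, at 366.1 against 333.5. Its other measured probe set had one of 0.76, past 1.5-fold as higher, so the ratios of the probe sets differ in size. Signals of that dimmer probe set are not given here, so its distance from the floor cannot be judged.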
